A study of Homo sapiens with 4 samples.

Results

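The replication-dependent histone gene clusters are stretches of chromosomes 6 and 1 that hold many short genes for the linker histone H1 and the core histones H2A, H2B, H3 and H4. They were taken here as all promoter-array design regions with at least 5 probes starting in 1 of 3 intervals: chromosome 6 from 26.11 to 26.40 Mb, chromosome 6 from 27.20 to 27.975 Mb, and chromosome 1 from 148.04 to 148.14 Mb. This gave 46 of 18008 regions, with 1145 of 386230 probes. The first chromosome 6 interval held 22 regions, the second 17 and the chromosome 1 interval 7. Each region had 14 to 48 probes (median 23); 25 were 2700 bp long and 21 were longer, up to 5342 bp.

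Binding was read on 4 promoter arrays by ChIP-chip with 2 dyes. The cells were a stable line made from HEK293, which derives from human embryonic kidney. In it RPF-1, marked with an HA tag, is switched on when tetracycline (Tet) is left out. Cells grown for 48 h without Tet (induced, Cy5) were compared on each array with cells of the same line grown for 48 h with Tet (uninduced, Cy3), both fixed with 1% formaldehyde and precipitated with anti-HA antibody. The dyes were not swapped, so dye and induction cannot be told apart. Arrays 2, 3 and 4 name the preparation pairs Tet4- and Tet3+, Tet10- and Tet7+, and Tet13- and Tet9+; array 1 names none. Whether the preparations came from different cultures is not in the labels, and the spread between arrays behind each p-value may therefore be technical.

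Replication-dependent histone genes are transcribed mainly in S phase, when new DNA must be packed into nucleosomes. Their transcripts lack introns and end in a stem-loop instead of a poly(A) tail. H2A, H2B, H3 and H4 form the core of the nucleosome, and H1 binds the linker DNA between nucleosomes. Many H2A and H2B genes lie head to head and share the DNA between them, and genes of one type are near copies of each other.

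The files name no genes and no genome build, and no annotation of their coordinate scale was at hand. The label was therefore checked by spacing alone. A single shift per interval was sought that would lay the histone genes of RefSeq (GRCh38.p14) over the regions, and no position was carried over from it. At the best shift, 21 of 22, 12 of 17 and 6 of 7 regions met a histone gene, in the order of the intervals above. At shifts more than 20 kb from the best one, at most 10, 5 and 3 regions did. The spacing thus fits histone genes in 39 of the 46 regions. The 7 regions that met none were chr6:26193226-26196141, 5 consecutive regions from chr6:27321286-27323986 to chr6:27548358-27551058, and chr1:148135624-148138324. Regions are given below by position on the files' scale, without gene names.

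RefSeq shows what the promoters of these genes look like. Its promoter sequences (GRCh38.p14, 250 bases before to 50 after each gene start) were at hand for 64 of 69 listed histone genes. The pentamer CCAAT, the core of the CCAAT box, was present on either strand in 54 of the 64 (84.4%), against 35.7% of 27305 promoters of all genes. The TATA box hexamer TATAAA was present on either strand in 42 (65.6%), against 12%. The median GC content was 43.2%, against 58.3% for all promoters. Motif matches are letters in a window, not measured sites.

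Sequence copies matter for these clusters because a probe in a copied stretch reads several places at once. Of 2016 pairs of histone promoters, 5 were at least 95% identical over their aligned bases. They include H2AC7 and H3C4, genes of different types, identical over 300 bases. Whether this pair is a copy or a single stretch listed under both genes was not checked. On chromosome 1, H2AC18 and H2AC19 were identical over 299 bases, H3C14 and H3C15 over 296 and H4C14 and H4C15 over 300. The order of these genes in RefSeq is H4C14, H3C14, H2AC18, H2AC19, H3C15 and H4C15, and the members of each pair lie on opposite strands. Of these promoters, 3 are shown as the 250 bases before the gene start, 5′ to 3′ on the gene's strand, because H2AC18 and H2AC19 show how alike such copies are and H3C14 is the next gene on the same chromosome. Capitals mark CCAAT (or ATTGG, its reverse complement) and TATAAA. All 3 hold both motifs, while the promoters of H4C14 and H4C15, not shown, hold 0 of either in the same window. The coordinates are GRCh38.p14 and differ from the scale of the array files: chr1:149842751-149843000 (minus strand) for H2AC18, chr1:149850811-149851060 (plus strand) for H2AC19 and chr1:149841209-149841458 (minus strand) for H3C14.
H2AC18: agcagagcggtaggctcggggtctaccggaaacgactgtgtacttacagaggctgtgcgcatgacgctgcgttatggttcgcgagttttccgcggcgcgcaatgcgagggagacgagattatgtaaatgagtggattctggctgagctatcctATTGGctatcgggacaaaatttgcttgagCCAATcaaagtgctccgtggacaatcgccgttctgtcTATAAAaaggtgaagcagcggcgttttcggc
H2AC19: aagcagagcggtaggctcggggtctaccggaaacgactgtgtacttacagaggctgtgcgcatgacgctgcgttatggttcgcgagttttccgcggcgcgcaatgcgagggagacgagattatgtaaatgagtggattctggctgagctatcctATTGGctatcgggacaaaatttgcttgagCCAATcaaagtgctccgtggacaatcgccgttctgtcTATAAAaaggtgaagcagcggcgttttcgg
H3C14: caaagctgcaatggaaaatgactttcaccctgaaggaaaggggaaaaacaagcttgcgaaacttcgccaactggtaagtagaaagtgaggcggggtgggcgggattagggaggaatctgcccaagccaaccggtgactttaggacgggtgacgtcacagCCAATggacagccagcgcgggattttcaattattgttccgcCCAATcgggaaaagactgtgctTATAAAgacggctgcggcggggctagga

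Each probe carries a field named count, which the files do not define and which was read as the number of genomic places it matches. A probe is named single-match below where this field is 1, and multi-match where it is 2 or more. Multi-match probes made up 20.9% of the probes in the histone regions (239 of 1145) and 6.3% in all other regions. The share was 7.4% in the first chromosome 6 interval, 15.0% in the second and 66.7% in the chromosome 1 interval. Of the 46 regions, 42 had at least 5 single-match probes and could be tested on them; 1 had a single such probe and 3 had none. For multi-match probes, 16 regions had at least 5, 17 had 1 to 4 and 13 had none.

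Over single-match probes, the histone regions as a set stood close to the array median. A region's value is the mean log2 ratio of induced over uninduced signal over its probes, after each array was centred on its median probe, so 0 is the middle of the array. The mean over the 42 regions was 0.026, 0.000, 0.140 and 0.016 in arrays 1 to 4. The overall mean was 0.045 ± 0.064 (SD, n = 4 arrays), less than 1 SD from 0. The 42 regions had a median of 0.053, against -0.016 for all 17299 regions tested. Their means ran from -0.342 to 0.399, and 26 of 42 were above 0. Array 3 gave the highest set mean. Across the other regions of the array that array also rose with probe length, from -0.109 in the class of regions with the shortest probes to 0.288 in the class with the longest, while array 1 went from 0.017 to -0.249. Single-match histone probes averaged 53.2 bases and those elsewhere 52.1. With the mean of each probe length subtracted, the set mean was 0.066, with 9 regions higher and 4 lower by the test described next.

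**Figure D1:**
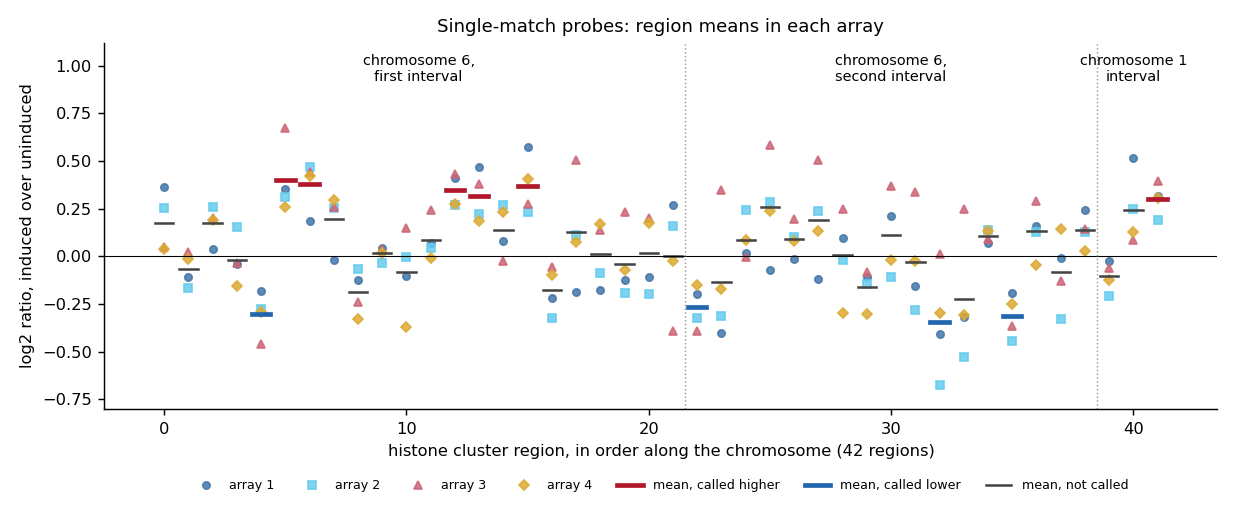
Mean log2 ratio over single-match probes for the 42 tested histone regions, in order along the chromosome, with 1 point per array and a bar for the mean of the 4 arrays. Red bars mark the 6 regions called higher in induced cells and blue bars the 4 called lower; 5 of the 6 higher regions lie in the first chromosome 6 interval and 3 of the 4 lower ones in the second.

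Induced cells had a higher ratio in 6 histone regions and a lower ratio in 4 (limma, Benjamini-Hochberg adjustment over all 17299 regions, threshold 0.05, n = 4). Over the whole array, 11.2% of regions were called higher and 14.4% lower. The histone shares were 14.3 and 9.52%, near this background. Of the 35 tested regions that met a histone gene in the spacing check, 4 were higher and 4 lower, with a median of 0.018; of the 7 that met none, 2 were higher, with a median of 0.188. The 32 regions that were not called had means between -0.225 and 0.259. The median SD between arrays over the histone regions was 0.136 (0.032 to 0.335). Without array 2 or without array 4 no histone region was called lower (5 and 4 at an unadjusted p under 0.05, limma), where 5.5 and 4.72% of all regions were called lower. The values themselves changed little for chr6:26164178-26166878, at -0.311 and -0.305, and for chr6:27938885-27941585, at -0.271 and -0.335.

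The highest region was chr6:26193226-26196141, at 0.354, 0.309, 0.675 and 0.257 in arrays 1 to 4 over 18 single-match probes. It was 1.32-fold higher in induced cells (0.399 ± 0.188, SD, n = 4; adjusted p = 0.00725, limma). This region met no histone gene in the spacing check. The next, chr6:26209954-26212654, gave 0.183, 0.466, 0.444 and 0.421 over 24 probes, all of them single-match. Array 1 was low there and the other 3 arrays lay between 0.421 and 0.466; the mean was 0.378 ± 0.132 (adjusted p = 0.006, limma).

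The next 3 higher regions lay close together in the first chromosome 6 interval. Region chr6:26331161-26333861 gave 0.571, 0.235, 0.273 and 0.406 (mean 0.371 ± 0.152). Region chr6:26305565-26309650 gave 0.411, 0.267, 0.434 and 0.276 (mean 0.347 ± 0.088). Its neighbour chr6:26310651-26313351 gave 0.467, 0.223, 0.381 and 0.187 (mean 0.315 ± 0.132). All 3 were above 0 in every array, with adjusted p between 0.00677 and 0.0126 (limma). All 3 lost the call when the median of the regions within 2 Mb was subtracted, with 0.240, 0.203 and 0.171 and adjusted p between 0.0579 and 0.132. The first was also lost without array 4 (adjusted p = 0.051), and the third with arrays 3 and 4 alone (adjusted p = 0.0612). The last higher region, chr1:148135624-148138324, gave 0.314, 0.192, 0.397 and 0.306 (mean 0.302 ± 0.084, adjusted p = 0.0115, limma). This call was lost with the median over probes (0.213, adjusted p = 0.0832), without array 4 (adjusted p = 0.0681) and with arrays 1 and 2 alone (adjusted p = 0.133). It too met no histone gene in the spacing check.

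The lowest region with the same sign in all 4 arrays was chr6:27938885-27941585, at -0.194, -0.445, -0.367 and -0.252 over 15 probes (mean -0.314 ± 0.113, adjusted p = 0.0114, limma). Region chr6:26164178-26166878 gave -0.181, -0.278, -0.457 and -0.294 (mean -0.303 ± 0.115, adjusted p = 0.0134). Region chr6:27206599-27210754 gave -0.198, -0.321, -0.390 and -0.148 (mean -0.264 ± 0.111, adjusted p = 0.0225). The last call was lost with all probes (-0.121, adjusted p = 0.248) and without array 2, 3 or 4 (adjusted p = 0.0944, 0.0537 and 0.066). In these 3 regions no array reached 0. The remaining lower region, chr6:27897681-27900381, falls outside the naming rule because array 3 stood at 0.011. Its other arrays were at -0.408, -0.675 and -0.297 (mean -0.342 ± 0.284, adjusted p = 0.0275, limma).

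The first chromosome 6 interval stood above the second in arrays 1, 2 and 4 and level with it in array 3. The first averaged 0.067, 0.075, 0.139 and 0.063 in arrays 1 to 4 (mean 0.086 ± 0.036) and the second -0.071, -0.112, 0.141 and -0.060 (mean -0.025 ± 0.113). The difference was 0.138, 0.187, -0.002 and 0.123. The 2 arrays of the series named N39 in the file names (arrays 1 and 2) and those of N44 (arrays 3 and 4) gave second-interval means of -0.091 and 0.041. The 3 tested chromosome 1 regions averaged 0.148 ± 0.085.

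On chromosome 6 the histone regions of both intervals together stood below the regions around them, and on chromosome 1 they did not. The 123 tested regions within 2 Mb of the intervals, on either side or between them, averaged 0.071, 0.143, 0.181 and 0.090 (mean 0.121 ± 0.050). The mean of all histone regions lay below this in each array, by -0.045, -0.143, -0.041 and -0.074. On chromosome 6 alone the difference was -0.025, -0.147, -0.158 and -0.103 (mean -0.108 ± 0.060). The regions around the chromosome 6 intervals gave 0.031, 0.140, 0.298 and 0.112. The second interval was below them in every array, and the first in arrays 2 to 4 but not in array 1, at 0.067. The 3 tested chromosome 1 regions gave 0.270, 0.078, 0.140 and 0.103, against 0.121, 0.145, 0.037 and 0.063 in the 55 regions around them, and were higher in 3 of 4 arrays. The 10 regions between the 2 chromosome 6 intervals averaged 0.237 ± 0.104. Of the 123 surrounding regions, 39 were called higher and 4 lower. When the local median was subtracted, the mean of the histone regions turned from 0.045 to -0.083, with 3 regions called higher and 8 lower. These are set means over regions chosen together, so no p is given.

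Over multi-match probes the picture was one-sided. Of the 16 regions with at least 5 such probes, 10 passed the test upwards and 0 downwards (limma, adjustment over 1405 regions; 0 were lower at an unadjusted p under 0.05 too). Over the whole array, 47.0% of such regions were called higher and 4.06% lower, so the histone share of 62.5% stands against a background that is itself high. The 16 regions averaged 0.530, 0.514, 0.331 and 0.346 in arrays 1 to 4 (mean 0.430 ± 0.106). Their median was 0.397, against 0.293 for all 1405. The 19 such regions within 2 Mb of the intervals averaged 0.345, 0.435, 0.667 and 0.425 (mean 0.468 ± 0.139). Of these, 11 were called higher and 0 lower. The histone mean was above theirs in arrays 1 and 2 and below it in arrays 3 and 4. The first chromosome 6 interval averaged 0.443 over only 2 regions and the second 0.540 over 8, against 0.401 over 9 regions around them. Those 9 gave 0.319, 0.365, 0.565 and 0.355 in arrays 1 to 4. The first interval gave 0.359, 0.527, 0.561 and 0.326, below them in arrays 3 and 4. The second gave 0.573, 0.585, 0.505 and 0.496, below them in array 3. The chromosome 1 interval averaged 0.279, against 0.528 around it. Without array 2, 6 of the 16 were called higher, and 29.5% of all such regions.

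The multi-match calls were spread over both chromosomes: 8 of 10 tested regions on chromosome 6 and 2 of 6 on chromosome 1. The highest was chr6:27912218-27916296, at 0.955, 0.842, 1.170 and 0.618 over 6 multi-match probes, 1.86-fold higher in induced cells (0.896 ± 0.230, adjusted p = 0.000639, limma). Its 29 single-match probes gave 0.069, 0.136, 0.090 and 0.131 (mean 0.106 ± 0.032, not called). Region chr6:27888600-27892697 gave 0.576, 0.739, 0.599 and 1.160 over 7 multi-match probes (mean 0.768 ± 0.271). Region chr6:27220686-27224798 gave 0.940, 0.962, 0.630 and 0.450 over 5 (mean 0.745 ± 0.249). All 4 arrays were well above 0 in these 3 regions.

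In 2 further regions the arrays of the 2 series stood apart. Region chr6:27206599-27210754 gave 1.236 and 1.066 in arrays 1 and 2 and 0.228 and 0.190 in arrays 3 and 4 over 5 multi-match probes (mean 0.680 ± 0.548, adjusted p = 0.0131, limma). This region was called lower over its single-match probes. Region chr1:148122948-148128290 gave 1.063 and 0.806 in arrays 1 and 2 and 0.317 and 0.347 in arrays 3 and 4 (mean 0.633 ± 0.364, adjusted p = 0.00544, limma). Its single-match probes gave 0.517, 0.249, 0.085 and 0.125, again higher in arrays 1 and 2, and just missed the threshold (mean 0.244 ± 0.195, adjusted p = 0.0518). With arrays 3 and 4 alone both calls were lost, at 0.209 (adjusted p = 0.237, limma) and 0.332 (adjusted p = 0.0849); with arrays 1 and 2 alone the values were 1.151 and 0.934. The call at chr6:27206599-27210754 was also lost without array 1 or 2 (adjusted p = 0.0522 and 0.104), and that at chr1:148122948-148128290 without array 2 (adjusted p = 0.0503).

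The other 5 higher regions were lower in level. Region chr6:27881755-27886320 averaged 0.624 ± 0.143 over 12 multi-match probes and was the most even between arrays, at 0.504, 0.525, 0.650 and 0.815. Region chr6:26230151-26234311 gave 0.676, 0.546, 0.250 and 0.430 (mean 0.476 ± 0.181), while its single-match probes were below 0 in all 4 arrays (mean -0.188 ± 0.117, not called). Regions chr6:26357657-26361014 and chr6:27906784-27909484 averaged 0.411 ± 0.362 and 0.358 ± 0.185, and the fifth, on chromosome 1, is described further down. On chromosome 6, 2 tested regions were not called: chr6:27966049-27971142 at 0.291 ± 0.225 (adjusted p = 0.0542, limma) and chr6:27897681-27900381 at -0.043 ± 0.157. The latter was also the region with the lowest single-match mean. All 16 regions tested on multi-match probes met a histone gene in the spacing check, so these calls cannot be set against regions without one.

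The 2 kinds of probe were compared directly in the 12 histone regions with at least 5 of each. Multi-match probes read higher than single-match probes of the same region in 9 of the 12 and lower in none (limma on the difference, adjustment over 703 regions; 0 lower at an unadjusted p under 0.05). Over the whole array 43.7% of such regions were called this way and 4.69% the other way. The mean difference over the 12 was 0.584, 0.698, 0.371 and 0.503 in arrays 1 to 4 (0.539 ± 0.138), against 0.239, 0.277, 0.297 and 0.264 (0.269 ± 0.024) over the 691 other regions. It was larger in the histone regions than in these others in each array, by 0.345, 0.421, 0.074 and 0.239, and array 3 gave the smallest excess. The 9 such regions within 2 Mb of the intervals gave 0.343, 0.213, 0.447 and 0.277 (mean 0.320 ± 0.100), with 2 called higher and 0 lower. The histone mean was above theirs in arrays 1, 2 and 4 and below it in array 3.

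The largest differences were at chr6:27206599-27210754 (1.434, 1.387, 0.618 and 0.338; mean 0.944 ± 0.551, adjusted p = 0.00253, limma), chr6:27888600-27892697 (0.729, 1.019, 0.261 and 1.183; mean 0.798 ± 0.404) and chr6:27912218-27916296 (0.886, 0.706, 1.080 and 0.487; mean 0.790 ± 0.253). All 3 lie in the second chromosome 6 interval. Their single-match means were -0.264, -0.030 and 0.106, so the 2 kinds of probe of 1 region placed it differently against the array. The 2 kinds also lie at different positions within a region, and the part of position was not tested. The 3 regions not called were chr6:27897681-27900381, chr6:27966049-27971142 and chr1:148078853-148083142, with differences of 0.300, 0.154 and 0.229 and 3 of 4 arrays above 0 in each.

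**Figure D2:**
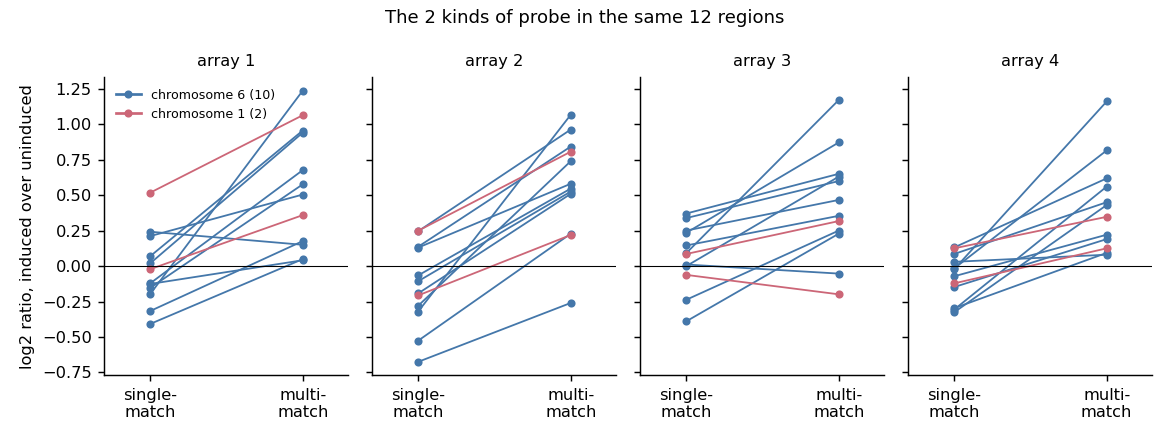
Mean log2 ratio over single-match and over multi-match probes of the 12 histone regions with at least 5 of each, 1 panel per array, with a line joining the 2 values of a region. In arrays 2 and 4 all 12 lines rise; 1 falls in array 1 and 2 fall in array 3, and the mean rise is 0.584, 0.698, 0.371 and 0.503 in arrays 1 to 4.

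Averaged over the 4 arrays and 3 intervals, the ratio was higher in each higher class of the count. In the histone regions, 906 single-match probes averaged 0.064 ± 0.048, 131 probes with a count of 2 averaged 0.156 ± 0.134, and 65 with a count of 3 to 4 averaged 0.527 ± 0.117 (SD, n = 4). The 24 probes with a count of 5 to 9 averaged 0.593 ± 0.149, and the 19 with 10 or more averaged 1.01 ± 0.259. The last value was 1.128, 1.194, 1.096 and 0.628 in arrays 1 to 4. Outside the histone regions the same classes averaged -0.009, 0.161, 0.284, 0.542 and 0.714. Histone probes with a count of 3 to 4 stood above those of other regions in arrays 1, 2 and 4 (0.665, 0.581 and 0.448 against 0.142, 0.301 and 0.268) and not in array 3 (0.413 against 0.424). The order did not hold in every array or interval. In array 3 the histone probes went from 0.133 at a count of 1 to -0.011 at 2, and in the chromosome 1 interval the class means were 0.176, 0.079, 0.460, 0.336 and 1.002. The intervals also fill the classes unequally, with 85 of the 131 probes at a count of 2 on chromosome 1. The count classes differ in probe length as well: histone probes with a count of 10 or more averaged 50.0 bases, and single-match histone probes averaged 53.2 bases. Outside the histone regions the classes averaged 52.1, 52.3, 52.4, 52.6 and 52.3 bases. With the mean of each probe length subtracted, the difference between probe kinds averaged 0.488 over 12 histone regions, with 9 called higher (limma). The part of probe length was not tested within the classes.

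**Figure D3:**
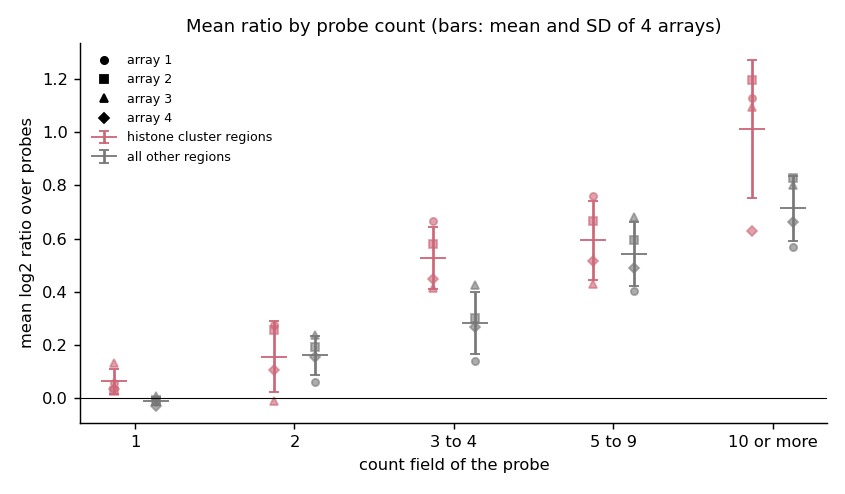
Mean log2 ratio of probes by their count field, for histone regions (red) and all other regions (grey), with 1 symbol per array and the mean and SD of the 4 arrays. The histone mean runs from 0.064 at a count of 1 to 1.01 at 10 or more, and array 4 lies below the other arrays in the last class, at 0.628.

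The chromosome 1 interval consists mostly of sequence that the array reads as copies. Of its 7 regions, 5 held 24 to 28 multi-match probes, and 85 of its 138 multi-match probes had a count of exactly 2. These 85 averaged 0.318 and 0.277 in arrays 1 and 2 and -0.287 and 0.006 in arrays 3 and 4, and the mean was 0.079 ± 0.280. Such probes averaged 0.403, 0.540, 0.626 and 0.420 in the first chromosome 6 interval (20 probes) and 0.032, -0.034, 0.401 and 0.194 in the second (26 probes). Over multi-match probes, chr1:148068655-148071355 gave 0.622, 0.630, -0.094 and 0.135 and chr1:148098838-148101549 gave 0.351, 0.632, -0.121 and 0.121. Both were higher in arrays 1 and 2 than in arrays 3 and 4, and neither was called (means 0.323 ± 0.362 and 0.246 ± 0.322). Region chr1:148078853-148083142 gave 0.359, 0.219, -0.199 and 0.125 and chr1:148088604-148091340 gave 0.277, 0.010, -0.313 and -0.112 (means 0.126 ± 0.237 and -0.035 ± 0.247, not called). The fifth, chr1:148050038-148052738, gave 0.498, 0.187, 0.537 and 0.310 and was called higher (0.383 ± 0.164, adjusted p = 0.0134, limma).

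Of these regions, 4 form 2 pairs around a common point. The start of chr1:148068655-148071355 and the end of chr1:148098838-148101549 are equally far from position 148085102. The start of chr1:148078853-148083142 and the end of chr1:148088604-148091340 are equally far from a point 5.5 bp away. Reflected about the mean of these points, with probes matched to the nearest within 50 bp, the profiles of the outer pair correlated at r = 0.597 over 23 probe pairs and those of the inner pair at r = 0.751 over 26 (mean of 4 arrays). Laid over each other in the same order instead, they correlated at -0.551 over 24 and 0.029 over 25 probe pairs. In single arrays the mirrored r was 0.441, 0.602, 0.129 and 0.299 for the outer and 0.596, 0.796, 0.581 and 0.379 for the inner pair. Neighbouring probes read overlapping fragments and paired probes may match the same DNA, so these are descriptions without a p.

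The mirrored shape was a rise away from the common point in the outer pair and a fall in the inner pair. In chr1:148068655-148071355 the 13 outer multi-match probes averaged 1.052, 0.989, 0.332 and 0.313 and the 12 inner ones 0.157, 0.240, -0.556 and -0.057. In chr1:148098838-148101549 they averaged 0.794, 1.052, 0.177 and 0.315 and -0.129, 0.177, -0.444 and -0.089. The outer probes were higher in every array of both regions, by 0.370 to 0.923. They were also longer, at 52.9 and 52.8 against 50.0 bases. In the inner pair the outer part was lower in every array, by -0.584, -0.149, -0.446 and -0.475 and by -0.371, -0.270, -0.380 and -0.489, at equal probe length. The count was not equal there. In chr1:148078853-148083142, 16 of 21 outer and 4 of 7 inner probes had a count of exactly 2. In chr1:148088604-148091340 these were 10 of 13 and 6 of 13, so count and position cannot be told apart in this pair.

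**Figure D4:**
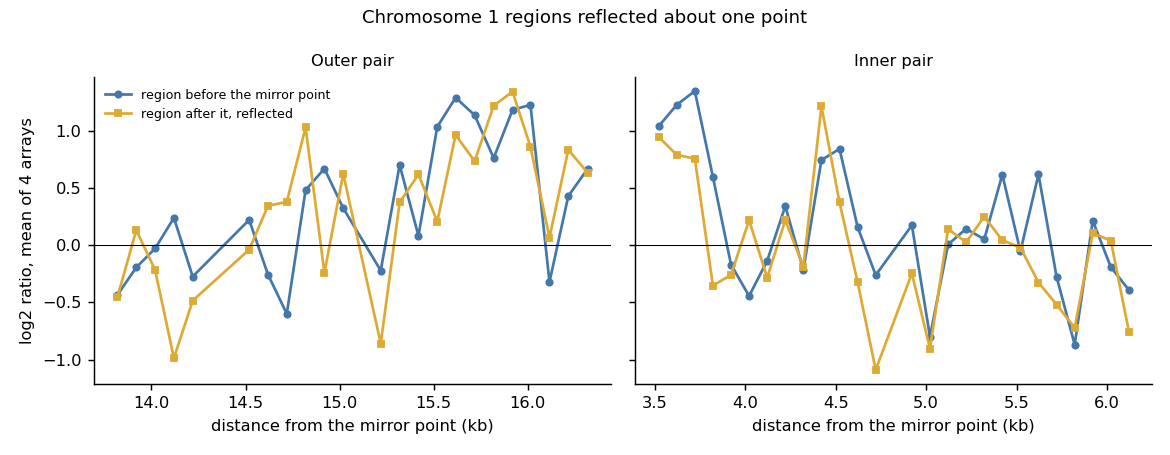
Log2 ratio of probes (mean of 4 arrays) against distance from the mirror point in kb for the outer and inner pairs of chromosome 1 regions, with the region after the point reflected onto the one before it. The reflected profiles correlate at r = 0.597 and 0.751 across probe pairs, and at 0.129 to 0.602 and 0.379 to 0.796 in single arrays. Paired probes may match the same DNA.

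Signal narrower than a region was looked for in 500 bp bins with at least 3 single-match probes. The histone regions held 190 bins in 41 regions. The ratio was higher in 53 of them (27.9%) and 31 (16.3%) had a lower one (limma, adjustment over 72231 bins, threshold 0.05). The shares over all bins were 15.4 and 17.2%, so the lower share was near the background of the whole array and the higher share above it. No bin share was taken over the regions within 2 Mb, of which 39 of 123 were called higher as whole regions. Whether the higher bin share is particular to the histone regions was therefore not tested. Bins of a region share fragments and are not independent. The higher share was 31.1% in the first chromosome 6 interval (33 of 106) and 22.5% in the second (16 of 71), and the lower shares were 11.3 and 23.9%. Without array 1, 33 histone bins were higher and 15 lower, and without array 2 or 4, 17 and 19 were lower. The shares over all bins fell as well, to 10.8% higher and 11% lower without array 1, and to 11 and 10.5% lower without array 2 or 4.

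The highest bin was chr6:26140867-26141226, at 1.218, 1.408, 1.558 and 0.642 over 4 probes, 2.31-fold higher in induced cells (1.206 ± 0.401, adjusted p = 0.000255, limma). The whole region around it, chr6:26139767-26143975, averaged 0.174 and was not called, and its lowest bin stood at -0.566. The bin chr1:148136924-148137373 gave 1.148, 0.866, 1.102 and 1.534 over 5 probes (mean 1.163 ± 0.277) and lies in a region that met no histone gene in the spacing check. The bin chr6:26307578-26307827 gave 1.063, 0.943, 0.690 and 1.143 over 3 probes (mean 0.960 ± 0.198), inside 1 of the higher regions above.

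The 3 lowest bins lay in regions that were lower as a whole. The bin chr6:27209699-27210159 gave -1.014, -1.102, -0.762 and -0.926 (mean -0.951 ± 0.145, adjusted p = 0.000282, limma). The bin chr6:26164678-26165131 gave -0.740, -0.903, -0.950 and -1.087 (mean -0.920 ± 0.143), and chr6:27898681-27899132 gave -1.017, -0.993, -0.733 and -0.757 (mean -0.875 ± 0.151). These 3 bins had a smaller spread between arrays than the 3 highest.

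Higher and lower bins often stood side by side. Of the 41 regions, 26 held a higher bin, 25 a lower bin and 14 (34.1%) both, against 17.9% of other regions with both. Histone regions are longer on average and so hold more bins. Among 2700 bp regions with at least 4 bins, the median distance between the highest and lowest bin was 0.828 log2 in 14 histone regions and 0.728 in 10693 others. In 2700 bp histone regions, single-match probes within 300 bp of the region's centre averaged 0.127, 0.057, 0.316 and 0.173 (mean 0.168 ± 0.110). Those 1200 bp or more from it averaged -0.133, -0.132, 0.032 and -0.042 (mean -0.069 ± 0.079), lower in each array. The 3 distance classes between these averaged 0.004, 0.035 and 0.072, so the ratio did not fall steadily with distance. In other regions the 2 means were 0.013 ± 0.035 and 0.005 ± 0.026. The files give no strand, so the side of the gene start is not known.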

How the data were processed

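The authors deposited, for each of 4 arrays, the log2 ratio of Cy5 to Cy3 signal per probe, written by NimbleScan per the file headers. The base of the logarithm is not written and was taken as 2. The array's biweight mean in each header was read as already subtracted, since deposited medians lie between -0.01 and 0. For the software version, any background correction and the build, the sources used here say nothing. The members, lists and tests were chosen with earlier results of these data known.

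Each array was centred on its median probe. Single-match and multi-match probes were averaged separately per design region (at least 5 probes) and single-match probes in 500 bp bins (at least 3). Values were tested against 0 over the whole array with limma 3.58.1 in R 4.3.3 (two-sided, Benjamini-Hochberg, threshold 0.05), checked on simulated data. Named regions had the same sign in all 4 arrays and passed the threshold: up to 8 highest and 8 lowest for single-match, 5 for multi-match, 3 for differences and bins, with the regions holding most multi-match probes; where 2 tied for the third place both are given. For a single value, an exact sign-flip test over 4 arrays has a smallest two-sided p of 0.125, so none is given. Array number limits the precision.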

Additional observations from a re-analysis of the deposited data

Results flagged for a closer look

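Of 40 values reported for the histone regions 2 had 1 array far from the other 3 by Dixon's test at its 95% level, and chance flags about 1 in 20. In region chr6:26209954-26212654 over single-match probes, array 1 stood at 0.183, below 0.421 to 0.466 in arrays 2 to 4. In the mean of the first chromosome 6 interval over single-match probes, array 3 stood at 0.139, above 0.063 to 0.075 elsewhere. No cause was tested for either.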

How the results depend on the processing

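The fits with 1 array series only were chosen after seeing the data. All 23 named regions, differences and bins kept their sign wherever they could be measured, and 339 of 385 recomputed values kept the call. Of the 46 lost calls, 22 came with a minimum change of 0.5 log2. The mean over single-match regions was 0.115 with all probes and -0.083 after the local median was subtracted. For single-match regions, higher and lower counts were 10 and 2 with all probes, 11 and 7 with array weights, 3 and 8 after the local median was subtracted and 0 and 0 with the minimum change (limma). Arrays of N44 alone called 2 lower. Leaving out each array gave means of 0.014 to 0.060, 4 to 9 regions higher and 0 to 5 lower. With at least 10 probes, multi-match regions averaged 0.278 with 2 higher, and the difference between probe kinds averaged 0.369 with 1 higher, where 6 and 2 regions were left. The minimum change left 0 of either (3 of each at an unadjusted p under 0.05). Leaving out each array gave multi-match means of 0.397 to 0.463 with 6 to 11 higher, and differences of 0.486 to 0.595 with 7 to 11 higher. Histone bins higher and lower were 28 and 18 of 133 with 1000 bp bins (14.7 and 15.9% of all bins), 18 and 15 of 63 with at least 5 probes (14.2 and 19.1%), 1 and 0 with the minimum change (5 lower at an unadjusted p under 0.05), and 23 and 6 of 190 with N44 alone (7.13 and 5.99%). With 250 bp bins 54 of 336 were lower (16.9%). Leaving out each array gave 33 to 43 higher and 15 to 26 lower. Fewer regions, bins or arrays entered some of these fits; otherwise the cause was not tested. No paired analysis was possible because the arrays form 1 group; each array already pairs an induced with an uninduced sample. Precision is limited by the number of arrays, and how signal over background limits it cannot be said without the intensities, which were not used here.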
